A study of Homo sapiens with 4 samples.

Results

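Translation initiation and elongation factors are described here in LCC9 cells treated with the compound A7, set against LCC9 cells that received vehicle. The set holds every gene whose symbol begins with EIF and a digit from 1 to 6, or with EEF and 1 or 2, which gave 67 of the 23605 gene symbols in the tables. LCC9 is a tamoxifen-resistant human breast cancer line with luminal features, whose labels give a wild-type, positive status for estrogen receptor alpha. Both groups were kept in phenol-red-free IMEM to which 5% charcoal-stripped serum was added, a medium low in estrogen. Cells of the first group received A7, which the labels call a BRCA1 mimetic, for 24 h (2 libraries), and cells of the other received DMSO vehicle for 24 h (2 libraries). Its catalogue number differs between the series title and the sample titles, and it is called A7 throughout. Whether the 2 libraries of a group stem from separate cultures is not labelled, and the p-values therefore reflect the spread among these libraries alone, which may be technical.

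In eukaryotes, EIF2 brings the initiator tRNA to the small ribosomal subunit, EIF3 holds that subunit ready, and the EIF4 factors bind the mRNA cap and unwind the leader so that the subunit can scan to the start codon. EEF1A then delivers each aminoacyl-tRNA and EEF2 moves the ribosome along by 1 codon at a time. Kinases of the EIF2AK family, EIF4E-binding proteins and EEF2K slow these steps when nutrients are short or cells are stressed. Many mRNAs of this machinery start with a C followed by a run of pyrimidines (the TOP motif), through which the kinase complex mTORC1 regulates their translation.

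The starts of 9 of the 12 factors found with such a run are shown because they include members of EIF2, EIF3, EIF4 and the elongation factors and both directions of difference, and those of EIF3I and EIF4EBP3 because they lack it and had some of the smallest p-values. Each sequence is 30 bases on the gene's strand, 10 before the annotated start and 20 from it, from RefSeq on GRCh38.p14, and capitals mark the unbroken pyrimidine run that begins at the start with a C. A gene counts as having the run if any of its annotated starts has it, and EEF1B2 has another annotated start, chr2:206159599-206159628, without it.
EEF1A1, chr6:73521013-73521042, minus strand: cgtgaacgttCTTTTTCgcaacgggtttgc
EEF1B2, chr2:206159885-206159914, plus strand: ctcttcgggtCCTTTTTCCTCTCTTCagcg
EEF2, chr19:3985444-3985473, minus strand: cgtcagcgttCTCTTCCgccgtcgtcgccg
EIF2A, chr3:150546777-150546806, plus strand: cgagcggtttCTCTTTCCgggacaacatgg
EIF2S3, chrX:24054946-24054975, plus strand: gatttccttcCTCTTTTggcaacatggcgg
EIF3D, chr22:36529147-36529176, minus strand: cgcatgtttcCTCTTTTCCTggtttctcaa
EIF3F, chr11:7987327-7987356, plus strand: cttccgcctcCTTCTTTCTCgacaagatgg
EIF3M, chr11:32583821-32583850, plus strand: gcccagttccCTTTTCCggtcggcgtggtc
EIF4B, chr12:53006446-53006475, plus strand: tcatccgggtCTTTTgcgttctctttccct
EIF3I, chr1:32222397-32222426, plus strand: ttccggtcttactcacgttgcggccttcct
EIF4EBP3, chr5:140547652-140547681, plus strand: gtggtcggctgagtccgcctcagactcaga

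Levels are given as scaled FPKM, that is, the deposited FPKM (fragments per kilobase of transcript, relative to the fragments mapped in the library) divided by a factor of each library, so levels of different genes can be set side by side per length. Summed FPKM were 1189056 and 1192830 in the A7 libraries and 1324082 and 1473540 in the vehicle libraries. The steps between low FPKM values put the depth at roughly 4200000 and 3200000 fragments with A7 and 2300000 and 2200000 with vehicle, so the vehicle values carry the larger counting error. All 8 listed luminal markers reached a mean FPKM of 1. Their summed level of 36300 and 35800 scaled FPKM with A7 and 76900 and 80800 with vehicle was nearly all TFF1, a secreted estrogen-responsive peptide, at 35311 and 35079 with A7 and 75730 and 79930 with vehicle. Of the other 7, ESR1, GATA3 and CDH1 lay wholly above vehicle and the rest overlapped, and the part of TFF1 in the results was not tested. Of 5 basal markers none did, and 4 were at 0 throughout. Of 6 fibroblast markers 1 did, with summed levels of 11 and 0.963 in A7 libraries against 0.416 and 0.421 in vehicle libraries, and its part in the results was not tested. Of the leukocyte markers, PTPRC and CD3E were at 0 in all 4 libraries and CD68 reached the minimum, and none of 4 endothelial markers did. RNA came from whole cultures, so fewer cells with a transcript and less of it per cell cannot be told apart.

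Of the 67 symbols, 60 had a mean FPKM of at least 1 over the 4 libraries and were tested. No factor passed the test across all genes (limma, Benjamini-Hochberg adjusted p under 0.05), in either direction, against 1 higher and 1 lower gene among all 8952 tested (0.0112% each). The smallest adjusted p of the set was 0.582, that of EIF4EBP3. At an unadjusted p under 0.05, 1 factor was higher with A7 (1.67%, against 2.21% of all tested genes) and 4 were lower (6.67%, against 3.55%). The higher one was EIF4EBP3, and the lower ones were EIF6, EIF3I, EIF2B3 and EIF3IP1.

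Most differences were small and leaned to lower levels with A7. The mean was lower with A7 for 38 factors (63.3%, against 50.3% of all tested genes) and higher for 22, and the median log2 difference was -0.10, against -0.0019 over all tested genes. Both A7 libraries lay below both vehicle libraries for 23 factors (38.3%, against 18.6% of all tested genes) and above them for 8 (13.3%, against 18.3%), and the groups overlapped for 29. This lean depended on the scaling. With FPKM rescaled to the same sum in each library (TPM), which raised the median of all genes to 0.17, the factors' median was 0.11, or -0.068 relative to that shift, and 3 factors lay wholly below and 22 wholly above vehicle (5.36% and 40.7% of all tested genes). After quantile normalization the median was 0.026, with 14 factors wholly below and 13 wholly above (16.2% and 18.6% of all tested genes).

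**Figure D1:**
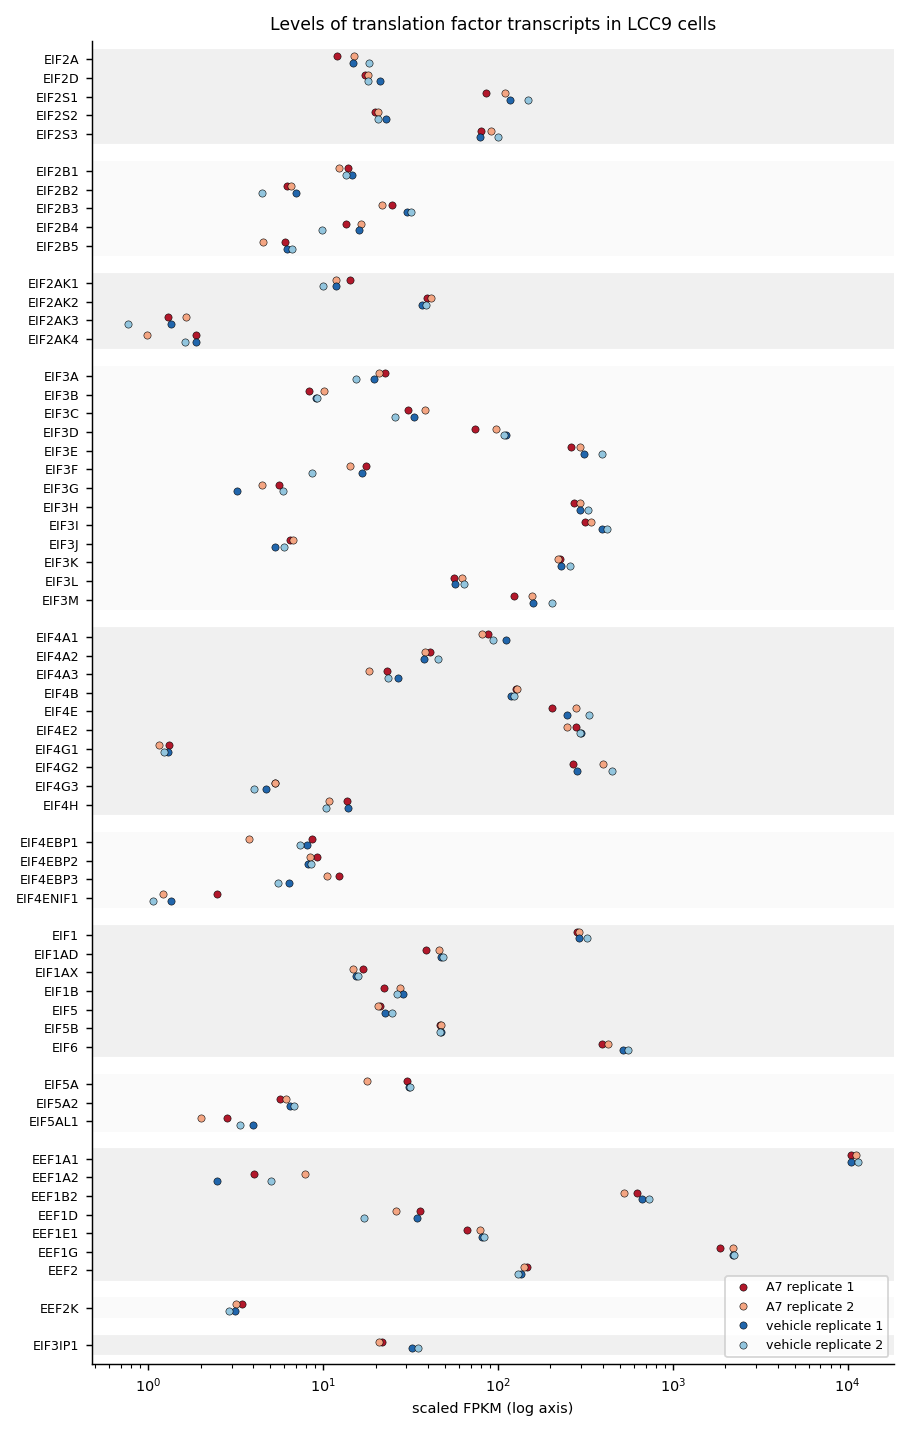
Scaled FPKM of the 60 tested factors in each library on a log axis, grouped by complex, with A7 replicates in red tones drawn just above the vehicle replicates in blue tones. Levels run from a mean of 1.25 for EIF4G1 to 10887 for EEF1A1, and the 4 points of a gene lie close together next to that range.

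At this scaling the factors' differences varied with abundance, as did those of all tested genes. Among the 16 factors with a mean of 100 scaled FPKM or more, 14 had a lower mean with A7 (87.5%), and so did 83.8% of the 714 tested genes at that level. The medians were -0.15 for the factors and -0.16 for all such genes. At this level the 2 groups did not overlap, with A7 lower, for 11 factors (68.8%, against 48.6% of all such genes), and with A7 higher for 2 (12.5%, against 3.64%). Between 10 and 100 scaled FPKM the medians were -0.097 for 27 factors and -0.050 for 2549 genes. Below 10 they were 0.11 for 17 factors and 0.052 for 5669 genes. Across genes, Spearman's rho between the log2 difference and the level was -0.413 over the 60 factors and -0.26 over 8217 tested genes with an annotated length, values that share libraries and depth. The difference also varied with annotated transcript length, with a rho of 0.342 over the factors and 0.216 over those genes. Level and length were themselves related (rho -0.318 and -0.339), and their parts in the differences were not tested. The medians at 100 scaled FPKM or more turned to 0.072 for the factors and 0.063 for all such genes with TPM, and were -0.0083 and 0.0033 after quantile normalization. Between 10 and 100 they were 0.12 and 0.16 with TPM and -0.059 and 0.0032 after quantile normalization, and below 10 they were 0.26 and 0.20 with TPM and 0.073 and 0.016 after quantile normalization.

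**Figure D2:**
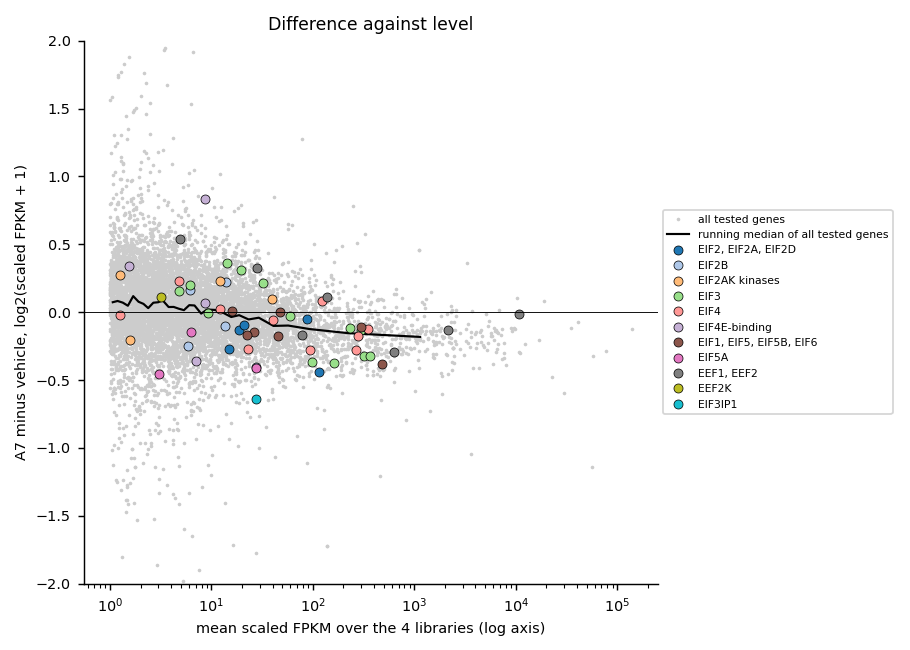
Log2 difference (A7 minus vehicle) against the mean scaled FPKM over the 4 libraries (log axis) for all tested genes in grey, with their running median in black, and for the 60 factors coloured by complex; the vertical axis ends at -2 and 2. At the median-ratio scaling the black line falls from above 0 at low levels to below 0 at high levels, and most factors above 100 lie near it, below 0.

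EIF2 carries the initiator tRNA as a complex of 3 subunits. EIF2S1, its alpha subunit and the target of the stress kinases, had 86.1 and 110.0 scaled FPKM with A7, against 118 and 148 with vehicle. Both A7 libraries lay below both vehicle libraries, by 1.36-fold in the means of 98.0 ± 16.9 with A7 and 133 ± 21.3 with vehicle (SD, n = 2 each), with a log2 difference of -0.44 (SE 0.18, adjusted p = 0.806). The other subunits, EIF2S2 with 19.9 and 20.7 with A7 against 23.0 and 20.7 with vehicle and EIF2S3 with 80.2 and 91.7 with A7 against 78.7 and 100.3 with vehicle, overlapped between A7 and vehicle. EIF2S3 has a near-identical copy, EIF2S3B, with which its reads could be shared. EIF2A and EIF2D, which can deliver tRNA to the ribosome independently of EIF2, were also lower in the mean. EIF2A had 12 and 15 with A7 against 14.9 and 18.2 with vehicle (log2 difference -0.27, SE 0.19, adjusted p = 0.817), and these groups overlapped. All 5 transcripts of this class had a lower mean, 1 without overlap (18.6% of all tested genes lay wholly below). Their median log2 difference of -0.13 became 0.079 with TPM.

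EIF2B recharges EIF2 with GTP. EIF2B3, its gamma subunit, had 24.8 and 21.9 scaled FPKM with A7 and 30.3 and 32.0 with vehicle, means of 23.4 ± 2.08 with A7 and 31.1 ± 1.23 with vehicle (SD, n = 2 each). It was 1.33-fold lower with A7, and the log2 difference of -0.40 (SE 0.15) had a 95% interval of -0.76 to -0.043, an unadjusted p of 0.0338 and a limma adjusted p of 0.806. EIF2B5, the catalytic epsilon subunit, had 6.04 and 4.57 with A7 against 6.25 and 6.66 with vehicle and also did not overlap (log2 difference -0.25, SE 0.19, adjusted p = 0.834). The alpha subunit EIF2B1 (13.8 and 12.4 with A7, 14.6 and 13.6 with vehicle), the beta subunit EIF2B2 (6.24 and 6.61 with A7, 6.97 and 4.50 with vehicle) and the delta subunit EIF2B4 (13.5 and 16.5 with A7, 16.1 and 9.83 with vehicle) overlapped. The subunits thus did not share a direction, with 3 lower and 2 higher means and a median of -0.099, which was 0.11 with TPM.

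The 4 EIF2AK kinases phosphorylate EIF2S1 and so slow initiation. EIF2AK2 (PKR), which senses double-stranded RNA, was the most abundant at 39.4 and 41.4 scaled FPKM with A7 and 37.0 and 38.6 with vehicle. The A7 libraries were the higher ones, by 0.09 on the log2 scale (SE 0.13, adjusted p = 0.908). EIF2AK1 (HRI), the heme-regulated kinase, had 14.2 and 11.9 with A7 against 11.9 and 10.1 with vehicle (log2 difference 0.23, SE 0.18, adjusted p = 0.834). EIF2AK3 (PERK), the kinase of the endoplasmic reticulum stress response, had 1.30 and 1.65 with A7 against 1.35 and 0.77 with vehicle (log2 difference 0.28, SE 0.25, adjusted p = 0.856). EIF2AK4 (GCN2), which senses amino acid shortage, had 1.88 and 0.98 with A7 and 1.89 and 1.62 with vehicle. Of the 4, EIF2AK2 alone did not overlap (18.3% of all tested genes lay wholly above), and the median log2 difference was 0.16.

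EIF3 is the largest initiation complex, and the differences of its subunits varied with abundance, as did those of all tested genes. Its subunits ranged from a mean of 4.80 scaled FPKM (EIF3G) to 368 (EIF3I). EIF3I had 314 and 340.0 with A7 and 396 and 421 with vehicle, means of 327 ± 18.2 with A7 and 409 ± 18.1 with vehicle (SD, n = 2 each). It was 1.25-fold lower with A7, with a log2 difference of -0.32 (SE 0.12, 95% interval -0.62 to -0.023, unadjusted p 0.0387, limma adjusted p = 0.806). EIF3D, a subunit that can itself bind the mRNA cap, had 73.9 and 97.6 with A7 and 112 and 108 with vehicle (log2 difference -0.37, SE 0.17, adjusted p = 0.806). Both lay wholly below vehicle.

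The other abundant EIF3 subunits had the same order of groups. EIF3E had 263 and 297 scaled FPKM with A7 and 311 and 394 with vehicle, and EIF3M 123 and 156 with A7 against 159 and 204 with vehicle. EIF3H had 274 and 295 with A7 and 297 and 326 with vehicle, and EIF3K 226 and 222 with A7 against 229 and 259 with vehicle. All 4 lay wholly below vehicle, EIF3H, EIF3K and EIF3M by a small gap. The less abundant subunits did otherwise. EIF3A, the large scaffold subunit, had 22.8 and 20.9 with A7 and 19.7 and 15.4 with vehicle, and EIF3J, which is loosely bound, 6.50 and 6.72 with A7 against 5.32 and 5.97 with vehicle, both wholly above vehicle. EIF3F, with 17.6 and 14.2 with A7 against 16.7 and 8.67 with vehicle, EIF3B, EIF3C, EIF3G and EIF3L overlapped, and EIF3C shares 99.9% of its sequence with EIF3CL over 3085 bases, so reads could be split between them.

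Over the 13 tested EIF3 subunits 8 had a lower mean, 6 of them without overlap, and 5 a higher mean, 2 without overlap. Of all tested genes 18.6% lay wholly below and 18.3% wholly above vehicle, and at 100 scaled FPKM or more 48.6% lay wholly below. The median of the EIF3 subunits was -0.027, and it was 0.19 with TPM, 0.027 after quantile normalization and 0.028 without A7 replicate 1. Spearman's rho between level and log2 difference was -0.709 over these 13 transcripts, against -0.26 over 8217 tested genes. Between annotated length and log2 difference it was 0.022, against 0.216. Both are descriptions of genes that share 4 libraries.

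**Figure D3:**
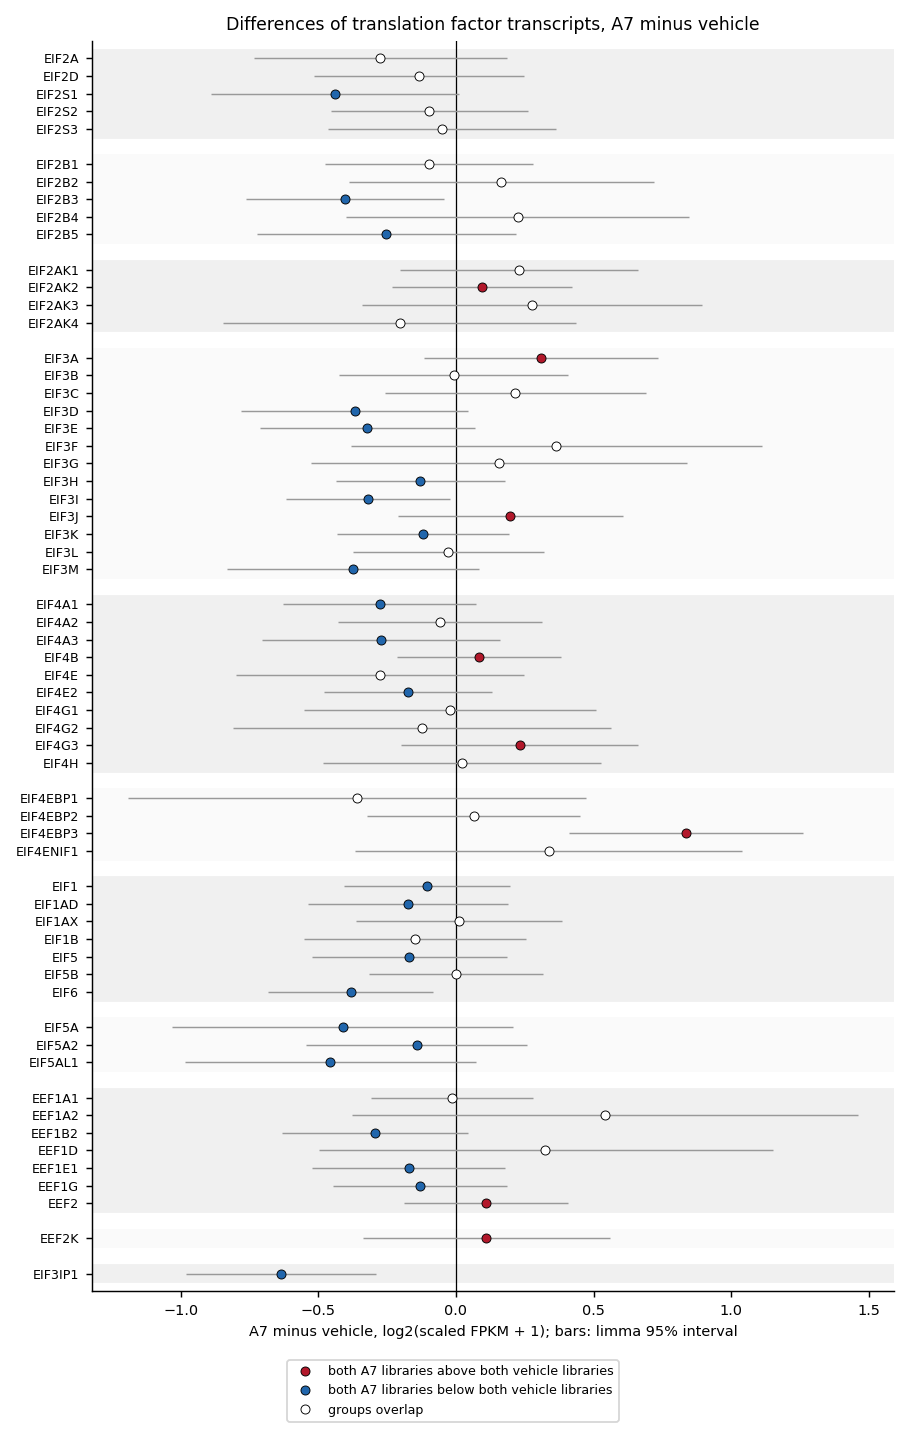
Log2 difference, A7 minus vehicle, of the 60 tested factors by complex, with limma 95% intervals as bars; filled points mark genes whose groups do not overlap, red with A7 above and blue with A7 below. The intervals of 55 factors include 0, and those of EIF4EBP3 above 0 and of EIF6, EIF3I, EIF2B3 and EIF3IP1 below 0 do not.

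The EIF4 factors recognise and prepare the mRNA. EIF4E, the cap-binding protein, had 204 and 278 scaled FPKM with A7 and 249 and 334 with vehicle, and the replicates of each group differed more than the groups did. Its relative EIF4E2, which binds caps but represses translation, had 278 and 249 with A7 against 300.4 and 293 with vehicle, wholly below. The scaffold EIF4G2, the most abundant of these transcripts, had 270.2 and 398 with A7 and 283 and 452 with vehicle (log2 difference -0.12, SE 0.28, adjusted p = 0.949). Its sign turned to 0.10 with TPM, to 0.045 after quantile normalization, and to 0.16 and 0.21 when A7 replicate 1 or vehicle replicate 2 was left out.

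The helicase EIF4A1 had 87.4 and 81.1 scaled FPKM with A7 and 111 and 94.2 with vehicle (log2 difference -0.28, SE 0.14, adjusted p = 0.806). It has 5 near-identical copies, a read-through transcript from SENP3 among them, that could share its reads. EIF4A3, a helicase of the exon junction complex, had 23.3 and 18.3 with A7 against 26.8 and 23.7 with vehicle (log2 difference -0.27, SE 0.18, adjusted p = 0.806). Both lay wholly below vehicle, while EIF4A2 (41.2 and 38.6 with A7, 38.0 and 45.3 with vehicle) overlapped. EIF4B, a helicase cofactor, had 127 and 129 with A7 and 118 and 123 with vehicle, and the scaffold EIF4G3 had 5.29 in both A7 libraries and 4.70 and 4.03 in the vehicle libraries, both wholly above. EIF4G1 and EIF4H overlapped. Of the 10 tested transcripts 7 had a lower mean and 3 a higher one, with a median of -0.091 that was 0.096 with TPM.

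EIF4E-binding proteins compete with EIF4G for EIF4E. EIF4EBP3 had 12.3 and 10.6 scaled FPKM with A7 and 6.39 and 5.55 with vehicle, means of 11.4 ± 1.24 with A7 and 5.97 ± 0.599 with vehicle (SD, n = 2 each). It was 1.92-fold higher with A7, with a log2 difference of 0.84 (SE 0.17, 95% interval 0.41 to 1.26, unadjusted p 0.00306, limma adjusted p = 0.582). The value rests on an estimated 59 fragments with A7 and 19 with vehicle, and per unit of depth A7 stood 1.89-fold over vehicle, with counting error alone giving a 95% interval of 1.11 to 3.35. The read-through transcript ANKHD1-EIF4EBP3, listed at 1.36 and 0.538 with A7 and near 0 with vehicle, holds the same sequence, so how reads were assigned between the 2 symbols could change both. ANKHD1 itself had 6.31 and 7.14 with A7 against 6.11 and 7.18 with vehicle.

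The other binders of EIF4E overlapped between groups. EIF4EBP1 had 8.69 and 3.79 scaled FPKM with A7 and 8.06 and 7.41 with vehicle, and EIF4EBP2 had 9.19 and 8.43 with A7 against 8.24 and 8.51 with vehicle. EIF4ENIF1, which carries EIF4E into the nucleus, had 2.49 and 1.22 with A7 against 1.35 and 1.06 with vehicle (log2 difference 0.34, SE 0.29, adjusted p = 0.846). Without A7 replicate 1 its difference was 0.0098, and without A7 replicate 2 it was 0.67. The median of the 4 was 0.20, but 0.0096 without A7 replicate 1, 0.41 without A7 replicate 2 and 0.34 with TPM.

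Factors of scanning and subunit joining were mostly lower in the mean. EIF6, which keeps the large subunit apart from the small one, had 396 and 429 scaled FPKM with A7 and 517 and 559 with vehicle, means of 413 ± 23.3 with A7 and 538 ± 29.1 with vehicle (SD, n = 2 each). It was 1.30-fold lower with A7, with a log2 difference of -0.38 (SE 0.12, 95% interval -0.68 to -0.083, unadjusted p 0.0204, limma adjusted p = 0.806). EIF5, which triggers GTP hydrolysis on EIF2, had 21.2 and 20.6 with A7 against 22.5 and 24.8 with vehicle (log2 difference -0.17, SE 0.14, adjusted p = 0.846), and its sign turned to 0.045 with TPM. EIF1, which guards start codon choice, had 282 and 290.3 with A7 against 293 and 324 with vehicle. EIF1AD, listed here although a part in scanning was not checked, had 38.8 and 46.2 with A7 against 47.2 and 48.4 with vehicle. EIF6, EIF5, EIF1 and EIF1AD lay wholly below vehicle, as did 18.6% of all tested genes. EIF1B, EIF1AX and the joining factor EIF5B overlapped, and EIF5B stood at 46.8 and 47.2 with A7 and 47.1 and 46.7 with vehicle. The median of the 7 was -0.15, and 0.068 with TPM.

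EIF5A carries the modified residue hypusine and helps ribosomes through difficult peptide bonds. EIF5A had 30.3 and 17.9 scaled FPKM with A7 and 31.1 and 31.6 with vehicle (log2 difference -0.41, SE 0.25, adjusted p = 0.806), and without A7 replicate 2 the difference was -0.046. Its copy EIF5AL1, 97.4% identical over 1159 bases, had 2.83 and 2.01 with A7 against 3.99 and 3.35 with vehicle (log2 difference -0.46, SE 0.22, adjusted p = 0.806), and reads could be split between them. EIF5A2 had 5.70 and 6.18 with A7 against 6.51 and 6.81 with vehicle. An estimate of 25 fragments with A7 and 17 with vehicle takes its median annotated length of 0.57 kb. It would be several times higher for the longest annotated transcript, of which 372 bases are 7%. All 3 lay wholly below vehicle, as did 18.6% of all tested genes, EIF5A by a small gap in its first A7 library. EIF5A and EIF5AL1 may not be separate counts, because they could share reads. The median was -0.41 and -0.19 with TPM.

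EEF1A1, EEF1G and EEF1B2 were the most abundant transcripts of the set, while the other elongation factors had lower means than EIF6. EEF1A1 had 10523 and 11137 scaled FPKM with A7 and 10425 and 11461 with vehicle, and the difference of -0.01 (SE 0.12, 95% interval -0.31 to 0.28, adjusted p = 0.987) turned to 0.21 with TPM and 0.16 after quantile normalization. The complex that recharges EEF1A with GTP holds EEF1B2, EEF1D and EEF1G. EEF1D overlapped between groups with a higher mean (log2 difference 0.32) and is given below. EEF1B2 had 623 and 524 with A7 against 671 and 729.7 with vehicle (log2 difference -0.29, SE 0.14, adjusted p = 0.806), and EEF1G had 1873 and 2200.4 with A7 against 2210.0 and 2239 with vehicle. EEF1B2 and EEF1G lay wholly below vehicle, as did EEF1E1, a part of the aminoacyl-tRNA synthetase complex, at 66.8 and 79.3 with A7 against 81.3 and 82.8 with vehicle. EEF1B2 has 4 near-identical copies, named as its pseudogenes, and EEF1G has 2 copies whose gene type was not checked.

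The other elongation transcripts differed in direction. EEF2, the translocation factor, had 148 and 141 with A7 and 136 and 131 with vehicle, wholly above. EEF1A2, the form of muscle and nerve, had 4.02 and 7.88 with A7 against 2.48 and 5.04 with vehicle (log2 difference 0.54, SE 0.37, adjusted p = 0.819), and EEF1D had 35.8 and 26.3 with A7 against 34.3 and 17.1 with vehicle, both with overlap. The difference of EEF1A2 ranged from 0.13 without A7 replicate 2 to 0.95 without A7 replicate 1. EEF2K, which inactivates EEF2, had 3.47 and 3.19 with A7 against 3.13 and 2.89 with vehicle, wholly above but by 0.11 on the log2 scale (SE 0.18, adjusted p = 0.926). Over the 7 EEF1 and EEF2 transcripts the median was -0.014, and it was 0.21 with TPM, 0.16 after quantile normalization and 0.027 without A7 replicate 1.

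EIF3IP1, a transcribed pseudogene of EIF3I, had the lowest log2 difference of the set. It had 21.7 and 20.8 scaled FPKM with A7 and 32.2 and 35.1 with vehicle, means of 21.3 ± 0.631 with A7 and 33.6 ± 2.01 with vehicle (SD, n = 2 each). It was 1.58-fold lower with A7, by 0.64 on the log2 scale (SE 0.14, 95% interval -0.98 to -0.29, unadjusted p 0.00417, limma adjusted p = 0.644). Its sequence matches EIF3I at 87.8% identity over 965 bases, below the 95% used here for near-identical copies. The parent gene EIF3I was lower too, and whether its reads were counted here was not tested.

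Another 6 symbols were under the FPKM minimum. EIF4E3, a cap-binding relative of EIF4E, had 0.601 and 0.648 scaled FPKM in A7 libraries against 1.14 and 0.775 in vehicle libraries, and EIF3CL had 0.346 and 0.515 with A7 against 0.578 and 0.840 with vehicle. EIF1B-AS1 had 0.337 and 0.146 with A7 and was listed at 0 with vehicle, EEF1DP3 had 1.32 in vehicle replicate 2 and was listed at 0 elsewhere, EEF1E1-MUTED reached at most 0.182, and EIF4E1B was listed at 0 in all 4. The remaining symbol is Y-linked and is not described.

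Differences between single replicates and between group means are given side by side, but they are unlike measures. A difference between single libraries carries more spread than one between means of 2 libraries. The median absolute log2 difference over the 60 factors was 0.184 between A7 replicates and 0.144 between vehicle replicates, against 0.186 between A7 and vehicle means. The group difference exceeded both replicate differences for 19 factors, and the share over all tested genes was not computed, so this count is a description only. EIF4G2 differed by 0.56 between A7 replicates and by 0.67 between vehicle replicates, EIF4E by 0.45 and 0.42, and EEF1A2 by 0.82 and 0.79. EIF4EBP1, at -1.02 with A7 and -0.11 with vehicle, and EIF5A, at -0.73 and 0.021, differed mainly between A7 replicates.

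**Figure D4:**
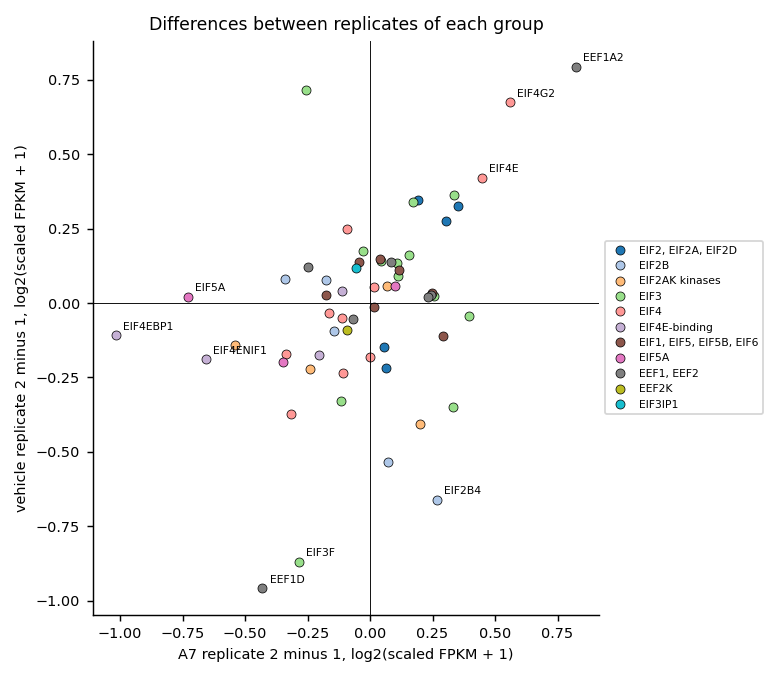
Replicate 2 minus replicate 1 on log2(scaled FPKM + 1) within the A7 group (horizontal) and within the vehicle group (vertical), 1 point per tested factor, coloured by complex. EIF4G2, EIF4E and EEF1A2 lie high in both, and EEF1D lies low in both at -0.43 with A7 and -0.96 with vehicle.

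The pyrimidine run was searched only at the annotated start and only on the gene's strand, as a C at the first base followed by at least 4 bases that are each C or T. Of the 49 tested factors with a RefSeq start window 12 have it (24.5%), against 7.95% of tested genes with a window and 4.07% of all 35116 windows. The last share is per window, while the others count a gene that has the run at any of its starts. The 12 factors had a median log2 difference of -0.089 (9 lower means; 4 wholly below and 2 wholly above vehicle) and the other 37 had -0.12 (23 lower means; 16 wholly below and 5 wholly above). All 514 tested genes with the run had a median of -0.022, with 107 wholly below and 96 wholly above vehicle, and of all 6466 tested genes with a window 1190 lay wholly below and 1151 wholly above. With TPM the medians were 0.13 and 0.093, and after quantile normalization 0.033 and -0.041. Of the sequences shown above, EIF3M and EIF3D stood at -0.38 and -0.37, EEF1A1 at -0.01, EEF2 at 0.11 and EIF3F at 0.37, so factors with the run lay on both sides of 0.

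**Figure D5:**
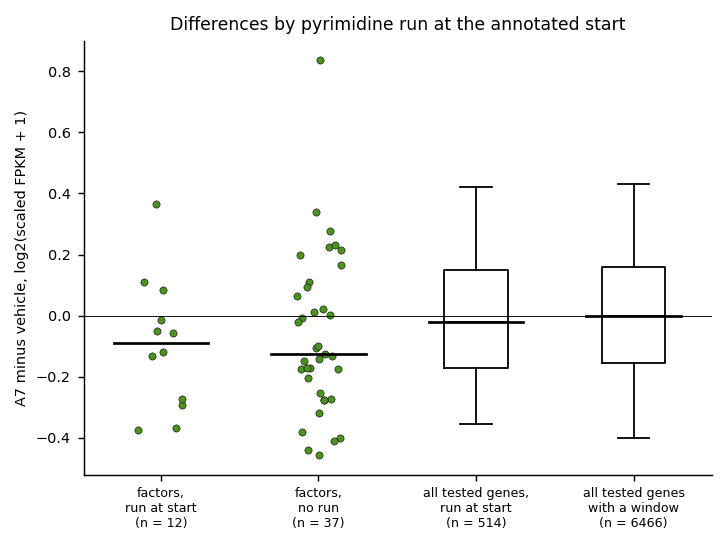
Log2 difference, A7 minus vehicle, of factors with and without a pyrimidine run at the annotated start (points) and of all tested genes with the run or with any start window (boxes from the 25th to the 75th percentile, whiskers from the 5th to the 95th); black lines are medians. The medians are -0.089, -0.12, -0.022 and -0.0029 from left to right, and both groups of factors spread over positive and negative values.

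No coding gene among the other pathway genes passed the test. Of 51 tested pathway genes and small RNAs, 1 was higher at an adjusted p under 0.05 and 0 were lower (0.0112% of all tested genes each way). Of the 51, 14 lay wholly below and 5 wholly above vehicle, against 18.6% and 18.3% of all tested genes. Among 7 poly(A)-binding proteins and partners all overlapped, with PABPC4 at 3.44 and 2.82 with A7 against 2.03 and 2.91 with vehicle and PAIP1, a partner of PABPC1, at 19.4 and 21.6 with A7 against 19.9 and 16.8 with vehicle. Of 7 termination and recycling genes, the ribosome-splitting ATPase ABCE1 had 17.9 and 22.2 with A7 against 24.0 and 29.3 with vehicle (log2 difference -0.40, SE 0.18, adjusted p = 0.806) and DENR, which recycles the small subunit, 21.1 and 19.8 with A7 against 25.8 and 22.7 with vehicle. DPH3 and DPH5, which help build the diphthamide of EEF2, had 12.8 and 14.0 with A7 against 16.7 and 16.9 with vehicle, and 11.8 and 13.9 with A7 against 14.3 and 16.3 with vehicle.

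Upstream of EIF4, 7 of 10 tested mTORC1 and MNK pathway genes had a higher mean and 3 a lower one. MLST8, a subunit of mTOR complexes, had 1.68 and 1.40 scaled FPKM with A7 and 3.83 and 2.12 with vehicle (log2 difference -0.61, SE 0.27, adjusted p = 0.806), and RPS6KB1, the S6 kinase, had 35.8 and 40.0 with A7 against 34.2 and 29.8 with vehicle. Among 9 tested genes of EIF2 dephosphorylation, kinase regulation and the stress response, 6 had a lower mean. ASNS, an asparagine synthetase induced by ATF4, had 37.2 and 41.9 with A7 against 43.7 and 52.6 with vehicle, and PPP1R15B, a phosphatase subunit that acts on EIF2S1, had 27.8 and 28.5 with A7 against 32.0 and 31.7 with vehicle, with a sign that turned to 0.045 with TPM. The stress transcription factor ATF4 overlapped at 38.3 and 33.3 with A7 against 38.2 and 27.3 with vehicle, and its target DDIT3, at 43.4 and 42.8 with A7 against 46.1 and 47.3 with vehicle, lay wholly below vehicle.

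Mitochondrial translation factors, which serve the organelle's own ribosomes, had 8 lower means of 11 and a median of -0.19 that was 0.030 with TPM. Of the 11, 5 lay wholly below vehicle and 1, the elongation factor GFM1, wholly above (18.6% and 18.3% of all tested genes). MRRF, the mitochondrial ribosome recycling factor, had 23.0 and 21.5 scaled FPKM with A7 and 28.7 and 32.8 with vehicle (log2 difference -0.45, SE 0.15, unadjusted p 0.0241, adjusted p = 0.806). C12orf65, which rescues stalled mitochondrial ribosomes, had 29.6 and 31.1 with A7 against 41.0 and 39.5 with vehicle (log2 difference -0.40, SE 0.13, unadjusted p 0.0258, adjusted p = 0.806).

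The 1 line past the threshold was a small nucleolar RNA that lies within a gene of the factors. SNORD10, of 142 bases and inside EIF4A1 in GENCODE 29, was at 38.0 and 95.5 scaled FPKM in A7 libraries and listed at 0 in both vehicle libraries (limma adjusted p = 0.0365). It met the FPKM minimum through the A7 libraries alone, so its p-value cannot be read as support for a difference. For so short an RNA a few fragments give a high FPKM, and the vehicle libraries were the shallower ones. The adjusted p was 0.703 with no filter on low values, 0.0649 without the variance trend, and 0.159 and 0.202 when vehicle replicate 1 or 2 was left out. SNORA63, inside EIF4A2, was at 103.7 in A7 replicate 1 and listed at 0 in the other 3 libraries, and the other 11 listed small nucleolar RNAs were at 0 in all 4. The host EIF4A1 stood lower with A7 in the mean (limma adjusted p = 0.806), and a relation of SNORD10 to its host was not tested.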

How the data were processed

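The authors deposited FPKM per gene symbol for each library, per the file headers. The submitters' processing notes list CASAVA 1.8.2, TopHat, Cufflinks 2.2.1 and build GRCh37, with no role or order, and the annotation they used is not given in the sources used here. Per the labels' protocols, cDNA was made from total RNA with a SMARTer PCR kit and sheared, with no strand-marking step described, so overlapping genes on opposite strands cannot be separated. FPKM were divided by a median-ratio factor (0.9899 and 1.02 for A7, 1.002 and 1.014 for vehicle) and tested as log2(scaled FPKM + 1) with limma 3.58.1 in R 4.3.3 (trend, two-sided, A7 minus vehicle, Benjamini-Hochberg over the 8952 genes that averaged at least 1 FPKM), which understates changes of low genes. There were 2 residual and 3.89 prior degrees of freedom. An exact permutation test of 2 against 2 libraries cannot go below 0.333. The test was also run on simulated data, with changes larger than the log2 difference of any factor. That check cannot show how well differences of the factors' size are found.

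Members, role groups and pathway lists were chosen with earlier results of these data known. The rule names, per role group, the most abundant member and the 2 with the smallest p, and, per pathway list, the 2 with the smallest p. Other members are given to complete each complex, and ATF4 and DDIT3 were chosen after their values were seen. Depth was estimated from FPKM steps with GENCODE 29 lengths, intervals on fragments cover counting error only, and copies were found with blastn 2.17.0 (95% identity over 50% of a transcript). The 14 lines with a number as symbol held at most 0.00539% of summed FPKM and were left out. Start windows come from RefSeq on GRCh38.p14, a build other than the files', and 49 of the 60 tested factors matched one. Alternatives were the scaling, pseudocount, filter, variance trend, replicate block and leaving out each library. A leukocyte marker of the fixed list is not reported here.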

Additional observations from a re-analysis of the deposited data

How the results depend on the processing

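No factor passed at an adjusted p under 0.05 in either direction under any of the 13 alternatives run. At an unadjusted p under 0.05, 1 factor was higher and 4 were lower. The higher count was 5 with TPM, 2 with no filter, 2 with the replicate block and 1 to 3 when 1 library was left out (3 without vehicle replicate 1). The lower count was 1 with TPM, 1 without the variance trend, 10 with the replicate block and 1 to 4 when 1 library was left out (1 without vehicle replicate 2). The labels do not say whether libraries with the same replicate number share a batch, and this was not tested. The correlation of the replicate differences was 0.0906 over all tested genes and 0.404 over the factors. The median over the factors (-0.102) was 0.106 with TPM, 0.0257 after quantile normalization, -0.124 with a mean FPKM of at least 5 and -0.138 to -0.0613 when 1 library was left out. Factors wholly above vehicle, 8 in all, were 22 with TPM and 13 after quantile normalization, and those wholly below, 23 in all, were 3 and 14. These 2 counts and the role medians under each alternative were added after seeing the data. Role medians changed sign with TPM for EEF1 and EEF2 (0.211), scanning and joining (0.0679), EIF2 (0.0785), EIF2B (0.108), EIF3 (0.189) and EIF4 (0.0959), after quantile normalization for EEF1 and EEF2 (0.156) and EIF3 (0.0273), and ranged over -0.123 to 0.027 and -0.196 to 0.0283 when 1 library was left out. With TPM the differences of EEF1A1 (0.211), EIF5 (0.0446), EIF4G2 (0.0997) and PPP1R15B (0.0447) changed sign, as did EEF1A1 (0.156) and EIF4G2 (0.0454) after quantile normalization. When 1 library was left out EEF1A1 ranged from -0.0823 to 0.0545 and EIF4G2 from -0.462 to 0.213. The cause was not tested. The adjusted p of SNORD10 was 0.145 with the replicate block. Of 474 alternatives over 37 named genes, 458 kept direction and side of the threshold and 10 changed sign. This count is no measure of robustness, because of the named genes only SNORD10 passed in the main fit. The variance trend and the replicate block also leave the differences themselves unchanged. Depth was lowest in the vehicle libraries. The 95% intervals, which are per gene and unadjusted, reached a median of 0.411 to either side, so smaller differences could not be told from 0 for most factors. The adjusted test needs larger ones, as EIF4EBP3 at 0.84 did not pass (limma adjusted p = 0.582).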
